A study of Homo sapiens with 6 samples.

Results

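The genes described here are 45 genes of cell adhesion, extracellular matrix and the epithelial-mesenchymal balance, measured by RNA-seq in the ovarian cancer cell line SKOV3. They were chosen by name, as the symbols of the deposited count table that equal a list of junction, keratin, matrix, integrin and transcription factor genes, whose counts averaged 10 or more across the 6 libraries. All 45 passed, out of 15126 genes with such an average and 60498 genes in the table. The parent cells carry 1 WT and 1 HAQ haplotype of STING1, the receptor of the cyclic dinucleotide cGAMP (WT/HAQ). The other lines are clones made from the parent by CRISPR editing with guide pairs delivered by lentivirus, puromycin selection and limiting dilution, of which WT/- retained the WT allele alone and HAQ/- the HAQ allele alone. Each line gave 1 control library and 1 library from cells given cGAMP at 10 μg/mL for 30 min in a digitonin buffer, followed by 4 h of rest. How the control cells were handled, and whether they met the digitonin buffer, was not given in the sources used here, so cGAMP and permeabilization cannot be told apart. Each genotype is also 1 clone or the parent, so genotype and clone cannot be told apart either.

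Epithelial cells hold together through E-cadherin and EPCAM and carry a cytoskeleton of keratins, and they rest on a basement membrane of laminins and type IV collagen to which integrins bind. In the epithelial-mesenchymal transition (EMT), the factors SNAI1, SNAI2, ZEB1, ZEB2 and TWIST1 repress epithelial genes, and cells gain N-cadherin, vimentin, fibronectin and fibrillar collagens. TGF-beta drives this program, and matricellular proteins such as CTGF and CYR61 are classic targets of YAP and TEAD, the effectors of the Hippo pathway, which respond to adhesion and the actin cytoskeleton. SKOV3 is known as an ovarian cancer line with mesenchymal features, and ovarian cancer cells depend on these adhesion molecules when they attach to the peritoneum.

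Values are rounded RSEM counts scaled by the TMM method (normalized counts), with library totals from 12444822 to 17608467 counts. A ratio between 2 libraries carries a 95% Wilson interval on the 2 counts, which covers counting error only, and a gene is called raised or lowered from 1.5-fold on, without a test, since no condition has a replicate. A test was possible where libraries could be pooled: the 3 lines for cGAMP, and the 2 libraries of each line for the differences between lines. It was edgeR's quasi-likelihood F test with both terms in the fit, which leaves 2 residual degrees of freedom, with Benjamini-Hochberg adjustment over all 15126 genes. A line's p-values measure the spread between its libraries and not between clones. STING1 itself had 669.1, 352.8 and 212.9 normalized counts in the WT/HAQ, WT/- and HAQ/- control libraries, a level of 0.527 and 0.318 of the parent's in the clones. Gene counts do not show which allele is transcribed. Of 9 markers of ovarian carcinoma lines, ERBB2, PAX8 and SOX17 were abundant in all 6 libraries. WT1, MUC16, EMX2 and WFDC2 stayed at 72 counts or fewer, while MSLN had 7 to 91 raw counts and FOLR1 75 to 248. Of 8 leukocyte markers, 6 had at most 3 counts in every library (CD68 and CD14 were above). Of 8 fibroblast markers PDGFRB and DPT were as low, while DCN had 143 to 238 raw counts, LUM 206 to 316 and COL1A2 204 to 730, and 6 endothelial markers summed to 27.04 to 112.2 normalized counts.

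**Figure D1:**
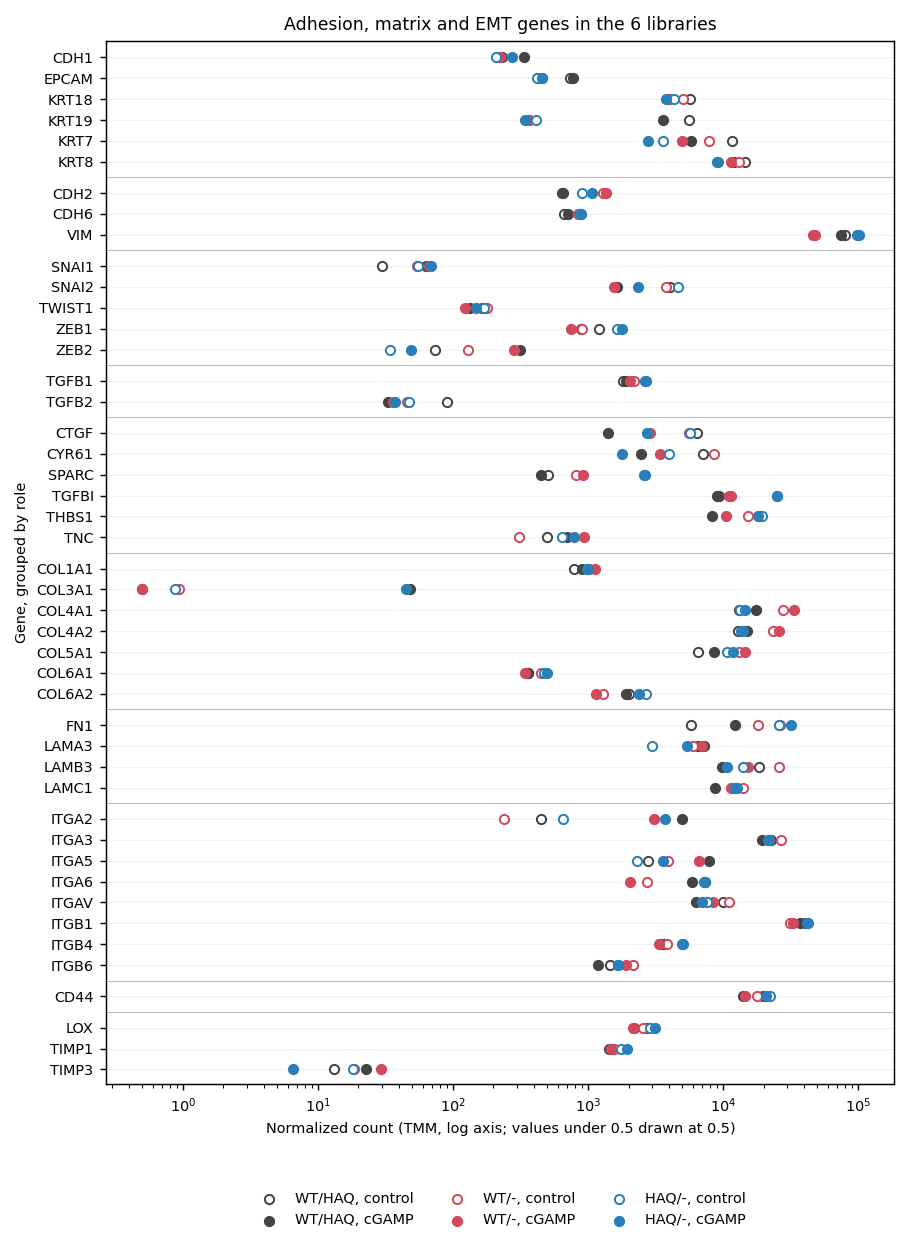
Normalized counts (TMM, log axis) of the 45 genes in the 6 libraries, with rows grouped by role, open points for control and filled points for cGAMP libraries, and 1 point per library. KRT19 shows the widest gap between the parent (5629.5 in the control library) and the clones (364.0 and 413.5), and ITGA2 the widest gap between open and filled points apart from COL3A1, which had 0 or 1 count in 4 libraries.

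The control libraries were compared first. Of the 45 genes, 8 were raised and 8 lowered in WT/- against WT/HAQ (35.6% of the members past 1.5-fold), where 22.8% of all genes tested passed either way (13.0% raised and 9.87% lowered). In HAQ/- against WT/HAQ, 5 were raised and 8 lowered (28.9% of the members), against 16.0% of all genes (7.37% raised and 8.59% lowered). Between the clones, 8 were higher and 8 lower in WT/- than in HAQ/- (35.6%), against 26.9% of all genes (15.3% and 11.6%). The first and second comparison share the WT/HAQ control library, and the members were chosen by name with earlier results of these data known, so these shares are descriptions without a test. The medians over the 44 members with a ratio were near 0 in all 3 comparisons (log2 ratios of 0.11, 0.10 and 0.00, against 0.00, -0.02 and 0.00 over all genes). In these 3 comparisons, 20 members stayed within 1.5-fold, among them CDH1, CTGF, SNAI2, THBS1, TWIST1, CD44, ITGB1 and TGFB1.

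By the edgeR test over both libraries of each line, 7 members were higher and 5 lower in WT/- than in WT/HAQ, where 8.81% of all genes were called (4.99% up and 3.81% down). In HAQ/- against WT/HAQ 3 were higher and 3 lower, with 1.22% of all genes called (0.377% and 0.846%). Between WT/- and HAQ/- 8 were higher and 9 lower, with 19.0% of all genes called (11.1% and 7.94%). Each of these 3 counts was 0 when either WT/- library was left out (15 to 24 members then had an unadjusted p under 0.05). Leaving out either WT/HAQ library kept FN1, ITGA6 and KRT19 in WT/- and KRT19, SPARC and TGFBI in HAQ/- called against the parent, with the lone parental library assumed to vary like the other lines.

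KRT19, the smallest acidic keratin of simple epithelia (chr17:41523617-41528308), had the largest difference between lines of the 45 genes apart from COL3A1, which had 0 or 1 count in 4 libraries. It had 5629.5 normalized counts in the WT/HAQ control library, 364.0 in WT/- and 413.5 in HAQ/-, and with cGAMP 3605.2, 368.6 and 342.6. Both parental libraries were thus far above all 4 libraries of the clones, which did not separate from each other (1.136-fold apart without cGAMP, log2 interval from -0.38 to 0.01). The level was 15.47-fold lower in WT/- and 13.61-fold lower in HAQ/- than in the parent. By edgeR the log2 difference was -3.63 ± 0.18 (SE, adjusted p = 0.00258) for WT/- and -3.59 ± 0.18 (adjusted p = 0.0089) for HAQ/-. Fewer cells with KRT19 and less KRT19 RNA per cell cannot be told apart in bulk RNA. Genes around KRT19 did not share its difference: the 31 genes tested within 1 Mb had median log2 ratios of 0.12 in WT/- and -0.04 in HAQ/-, with 1 and 5 of them lowered.

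EPCAM, an epithelial adhesion molecule and carcinoma marker, had 736.3 normalized counts in the WT/HAQ control library against 424.6 in WT/- and 420.5 in HAQ/-. With cGAMP it had 771.8, 454.1 and 459.8, so that the parent was again above both clones. The test gave log2 differences of -0.78 ± 0.09 for each clone (adjusted p = 0.0141 for WT/- and 0.0319 for HAQ/-). KRT7, the type II keratin of ductal and ovarian epithelium, had 11666, 7879.3 and 3589.9 normalized counts in the WT/HAQ, WT/- and HAQ/- control libraries. It was lower in HAQ/- than in WT/HAQ by a log2 of -1.38 ± 0.16 (adjusted p = 0.0366), with WT/- above HAQ/- by 0.98 ± 0.16 (adjusted p = 0.0186). WT/- was 1.481-fold below the parent and was not called against it (log2 -0.41 ± 0.16, adjusted p = 0.169).

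KRT8 and KRT18, the keratin pair of simple epithelia, differed less. KRT8 had 14629, 13229 and 9254.3 normalized counts in the WT/HAQ, WT/- and HAQ/- control libraries with WT/- above HAQ/- by the test (log2 0.43 ± 0.09, adjusted p = 0.0345). KRT18 had 5715.2, 5067.4 and 4334.9 and passed no test between lines. These neighbours on chromosome 12 overlap by 1084 bases in the annotation, on opposite strands, and keratins of this kind have many processed pseudogenes, so part of their counts may be divided differently between copies. CDH1, which encodes E-cadherin, was low and level, with 229.8, 223.0 and 210.2 normalized counts in the control libraries. Beside the lower KRT19 and EPCAM of the clones, a difference in CDH1 was not detectable at this depth without cGAMP (log2 intervals from -0.30 to 0.21 in WT/- and from -0.38 to 0.12 in HAQ/-). In the cGAMP libraries CDH1 had 337.4, 220.4 and 275.9 normalized counts and was lowered 1.531-fold in WT/- (interval from -0.88 to -0.35), with 1.223-fold lower values in HAQ/-. Over both libraries of a line it was not called (adjusted p = 0.273 and 0.526).

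CDH2, which encodes N-cadherin, was higher in both clones, with 649.7 normalized counts in the WT/HAQ control library, 1296.3 in WT/- and 903.8 in HAQ/-. It was called in WT/- against the parent (log2 1.03 ± 0.10, adjusted p = 0.0105) and between the clones (0.43 ± 0.10, adjusted p = 0.0396), and not in HAQ/- against the parent (0.60 ± 0.10, adjusted p = 0.0661). Per kilobase of exon, the control libraries held 75.7 normalized counts of CDH2 and 37.8 of CDH1 in the parent, 151.0 and 36.7 in WT/-, and 105.3 and 34.6 in HAQ/-. The N-cadherin transcript was thus the more abundant of the pair in each line. VIM, the vimentin filament of mesenchymal cells, went the other way in WT/-. It had 80299 normalized counts in the WT/HAQ control library, 47792 in WT/- and 98893 in HAQ/-, and the cGAMP libraries kept that order with 74586, 46569 and 101080. The lower level in WT/- was called against both other lines (log2 -0.71 ± 0.07 against WT/HAQ, adjusted p = 0.0116, and -1.08 ± 0.07 against HAQ/-, adjusted p = 0.00252). CDH6, a cadherin of kidney and ovarian carcinoma, had 662.9, 888.4 and 875.9 normalized counts in the control libraries and was not called.

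Among the EMT factors, ZEB1 and ZEB2 were ordered oppositely in the clones. ZEB1, a repressor of CDH1, had 911.8 normalized counts in the WT/- and 1641.0 in the HAQ/- control library, with 1205.6 in the parent, and it was lower in WT/- than in HAQ/- (log2 -1.05 ± 0.15, adjusted p = 0.0135). ZEB2, its paralog, had 129.7 normalized counts in WT/- and 34.0 in HAQ/-, with 73.4 in the parent, and was higher in WT/- than in HAQ/- (2.24 ± 0.39, adjusted p = 0.0209). Neither was called against the parent. SNAI2, which encodes Slug, was the most abundant of the 3 remaining factors, with 4075.6, 3788.0 and 4655.1 normalized counts in the WT/HAQ, WT/- and HAQ/- control libraries, and it was lower in WT/- than in HAQ/- (log2 -0.45 ± 0.11, adjusted p = 0.048), a call that was lost with the DESeq2 Wald test (adjusted p = 0.0613), with DESeq2 size factors, without either WT/HAQ library (0.057 and 0.0515) and without the HAQ/- cGAMP library (0.153). Per kilobase SNAI2 stood at 1242 normalized counts in the parental control library, against 139.4 for ZEB1, 82.8 for TWIST1, 17.6 for SNAI1 and 2.81 for ZEB2. SNAI1, which encodes Snail, had 34, 58 and 63 raw counts in the control libraries, a 1.801-fold and a 1.829-fold higher level in the clones with wide intervals (log2 from 0.24 to 1.46 and from 0.27 to 1.47), and was not called. TWIST1 had between 165.3 and 178.2 normalized counts in the 3 control libraries.

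Of the 2 TGF-beta ligands, TGFB2 passed 1.5-fold in both clones and TGFB1 in neither. TGFB1 had 1812.0, 2207.1 and 2655.6 normalized counts in the WT/HAQ, WT/- and HAQ/- control libraries and was not called (adjusted p = 0.0688 for HAQ/- against WT/HAQ). TGFB2 was scarce, with 103, 49 and 54 raw counts, and was lowered 1.991-fold and 1.933-fold in the clones without being called by the test. In the cGAMP libraries TGFB2 had 35, 27 and 34 counts, and the difference between lines was not seen there.

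Among the matricellular genes, SPARC and TGFBI were highest in HAQ/-. SPARC, a collagen-binding glycoprotein of matrix-producing cells, had 505.6 normalized counts in the WT/HAQ control library, 816.6 in WT/- and 2652.1 in HAQ/-, and 452.4, 926.9 and 2616.2 with cGAMP. The 6 libraries formed 3 levels, 1 for each line. All 3 differences were called, with log2 values of 2.46 ± 0.11 for HAQ/- against WT/HAQ (adjusted p = 0.0089), 0.86 ± 0.11 for WT/- against WT/HAQ (adjusted p = 0.0189) and -1.60 ± 0.11 for WT/- against HAQ/- (adjusted p = 0.00273). TGFBI, a TGF-beta-induced matrix protein that binds integrins, had 9384.2 normalized counts in the WT/HAQ control library, 11432 in WT/- and 25209 in HAQ/-, with nearly the same values after cGAMP (8970.8, 11030 and 25052). It was higher in HAQ/- than in WT/HAQ by 1.45 ± 0.07 (adjusted p = 0.0089) and lower in WT/- than in HAQ/- (-1.16 ± 0.07, adjusted p = 0.00231). SPARC and TGFBI both lie on chromosome 5, and the genes tested within 1 Mb of each had median log2 ratios of 0.15 (17 genes) and -0.07 (6 genes) in HAQ/- against WT/HAQ.

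CYR61 (CCN1 in current annotation), an integrin ligand, had 7155.0, 8525.1 and 3991.2 normalized counts in the WT/HAQ, WT/- and HAQ/- control libraries, and by the test its WT/- level exceeded that in HAQ/- (log2 1.01 ± 0.11, adjusted p = 0.00826). CTGF (CCN2), its relative, did not follow it, with 6401.1, 5642.3 and 5682.8. Of 22 other genes of the YAP and TEAD list, 6 were raised (27.3%, against 13.0% of all genes) and 3 lowered (13.6%, against 9.87%) in the WT/- control library against the parent, and 7 lowered (31.8%, against 8.59%) and 0 raised in that of HAQ/-. With cGAMP 8 were raised (14.6% of all genes were) and 2 lowered (9.89%) in WT/-, and 1 raised (9.87%) and 0 lowered (13.3%) in HAQ/-. The test called 5 of them higher in WT/- than in the parent (4.99% of all genes were), AMOTL2, LATS2, SAV1, VGLL3 and VGLL4. It called CCND1 and TEAD2 lower (3.81% of all genes were). Apart from AMOTL2 these genes were named after their values were seen. None of the 22 was called in HAQ/- against the parent, with the lowest adjusted p at 0.0926 (LATS2). Against the parent CYR61 was lowered 1.793-fold in HAQ/- and within 1.5-fold in WT/-, and neither was called (adjusted p = 0.0729 and 0.112). Of the immediate-early genes, which are induced within minutes of serum or handling, 9 of 12 were raised in WT/- (median log2 0.74, with 13.0% of all genes raised) and 9 of 12 lowered in HAQ/- (median -0.73, with 8.59% of all genes lowered) against the parent, with FOS at 4896 raw counts in the WT/- and 1208 in the HAQ/- control library and ATF3 at 11235 and 2871. By the test 4 of the 12 were higher in WT/- (4.99% of all genes were) and 1 lower in HAQ/- (0.846%) than in the parent, and 9 were higher in WT/- than in HAQ/- (11.1%). The 1 gene was IER2 (log2 -0.60, adjusted p = 0.0463), and the 4 were EGR2, FOSB, IER2 and JUN (named after their values were seen). CYR61 is itself known as such a gene, and the part of this class in its difference was not tested. TNC, tenascin-C, had 498.5, 308.9 and 640.3 normalized counts and THBS1, thrombospondin-1, 18901, 15428 and 19377, and neither was called between lines.

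The COL4A1 and COL4A2 collagens were higher in WT/- than in the other lines. COL4A1, the alpha-1 chain of type IV collagen, had 13163 normalized counts in the WT/HAQ control library, 27711 in WT/- and 13324 in HAQ/-. COL4A2, the alpha-2 chain that assembles with it, had 12911, 23659 and 13719. Both were about level between the parent and HAQ/- (1.012-fold and 1.063-fold apart) and higher in WT/- by log2 values of 1.01 ± 0.10 (adjusted p = 0.011) and 0.82 ± 0.08 (adjusted p = 0.012) against the parent. The 14 and 13 genes tested within 1 Mb of them, the partner chain included, had median log2 ratios of 0.35 and 0.36 in the WT/- control library against the parent, with 3 raised around each, and their part in this difference was not tested. Both collagen genes lie head to head on opposite strands of chromosome 13. In GENCODE their gene bodies overlap by 1346 bases, while the RefSeq starts used for the promoter windows lie 127 bases apart and leave no overlap, and whether the counting used strand was not given in the sources used here. Their RefSeq promoter windows (GRCh38.p14, 250 bases before to 50 after the start) share 226 bases, which are shown in capitals in the COL4A2 window because this pair moved together between the lines:
COL4A2, chr13:110307034-110307333, plus strand: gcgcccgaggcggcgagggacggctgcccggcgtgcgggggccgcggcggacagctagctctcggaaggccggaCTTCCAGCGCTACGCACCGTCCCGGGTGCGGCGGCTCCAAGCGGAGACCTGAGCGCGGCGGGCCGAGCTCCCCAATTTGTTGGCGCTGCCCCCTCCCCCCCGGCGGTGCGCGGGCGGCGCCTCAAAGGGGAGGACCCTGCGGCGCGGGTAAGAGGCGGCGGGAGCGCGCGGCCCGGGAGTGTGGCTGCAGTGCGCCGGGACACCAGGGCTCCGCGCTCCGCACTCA

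COL5A1, a chain of the fibril-regulating type V collagen, had 6539.9 normalized counts in the WT/HAQ control library, 13075 in WT/- and 10702 in HAQ/-, and was called in WT/- against the parent (log2 0.88 ± 0.09, adjusted p = 0.0135), while HAQ/- against the parent gave 0.59 ± 0.09 (adjusted p = 0.0658). COL6A2, a chain of the microfibrillar type VI collagen, was lowest in WT/-, with 2016.1, 1302.8 and 2697.4 normalized counts in the WT/HAQ, WT/- and HAQ/- control libraries. It was called lower in WT/- than in WT/HAQ (-0.69 ± 0.08, adjusted p = 0.017) and than in HAQ/- (-1.06 ± 0.08, adjusted p = 0.00383). COL6A1, which lies 93061 bases from COL6A2 on chromosome 21 and encodes its partner chain, did not follow, with 360.6, 449.8 and 476.3. COL1A1, the main chain of type I collagen, had 792.0, 1019.1 and 979.7 and was not called. COL3A1 was near 0 in the control libraries, with 0, 1 and 1 raw counts, where 3 counts are the limit that a count of 0 allows.

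FN1, which encodes fibronectin (chr2:215360440-215436073), had the largest called difference from the parent among the matrix members in WT/-, and in HAQ/- the largest after SPARC. It had 5822.1 normalized counts in the WT/HAQ control library, 18306 in WT/- and 25967 in HAQ/-, a level 3.144-fold and 4.46-fold above the parent. With cGAMP it had 12336, 26310 and 31891, so both parental libraries were below all 4 libraries of the clones. By edgeR the log2 difference was 1.36 ± 0.19 for WT/- (adjusted p = 0.0241) and 1.76 ± 0.20 for HAQ/- (adjusted p = 0.0336). The 11 genes tested within 1 Mb had median log2 ratios of -0.22 and -0.01.

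Of the laminin chains, LAMB3, the beta chain of laminin-332 in hemidesmosome-bearing epithelia, had 18630, 25962 and 14012 normalized counts in the WT/HAQ, WT/- and HAQ/- control libraries and was higher in WT/- than in HAQ/- (log2 0.69 ± 0.14, adjusted p = 0.0296). LAMA3, the alpha chain of the same laminin, was 2.185-fold lower in HAQ/- than in the parent without cGAMP (2999.3 against 6554.9 normalized counts) but 1.355-fold lower with it, and was not called (adjusted p = 0.129). LAMC1, the gamma-1 chain of most other laminins, lay between 11720 and 14097 in the control libraries.

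ITGA6, the laminin-binding alpha-6 integrin, had the largest called line difference of the 8 member integrins. It had 7307.1 normalized counts in the WT/HAQ control library, 2754.9 in WT/- and 7371.7 in HAQ/-, and 5867.4, 2055.5 and 7207.1 with cGAMP, so that both WT/- libraries were below the other 4. The lower level was called against WT/HAQ (log2 -1.46 ± 0.12, adjusted p = 0.00776) and against HAQ/- (-1.62 ± 0.12, adjusted p = 0.00319). Its beta partners differed less. ITGB4, the beta-4 chain of hemidesmosomes, had 3684.9, 3868.2 and 4962.2 normalized counts in the WT/HAQ, WT/- and HAQ/- control libraries, and ITGB1, the common beta-1 chain, 40236, 31659 and 41602. Both were lower in WT/- than in HAQ/- by the test (log2 -0.46 ± 0.09, adjusted p = 0.0273, and -0.39 ± 0.08, adjusted p = 0.0296).

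ITGB6, the beta chain of the TGF-beta-activating alpha-v beta-6 integrin, was called higher in WT/- than in WT/HAQ (log2 0.63 ± 0.10, adjusted p = 0.0308), although its control libraries, with 2153.0 and 1458.4 normalized counts, stayed under 1.5-fold apart. ITGA2, the alpha-2 collagen receptor, had 451.7, 240.8 and 658.7 normalized counts in the WT/HAQ, WT/- and HAQ/- control libraries and was not called between lines. ITGA5, the fibronectin receptor chain, had 2807.2, 3900.9 and 2298.8 and was not called either. ITGA3, ITGAV, the hyaluronan receptor CD44, the collagen crosslinker LOX and the protease inhibitor TIMP1 were within 1.5-fold in all 3 comparisons, and TIMP3 had 15, 20 and 21 raw counts.

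In the cGAMP libraries, 9 members were raised and 8 lowered in WT/- against WT/HAQ (37.8% of the members), with 24.5% of all genes past 1.5-fold (14.6% and 9.89%). In HAQ/- against WT/HAQ 7 were raised and 6 lowered (28.9%, against 23.1% of all genes, with 9.87% and 13.3%), and 7 were higher and 9 lower in WT/- than in HAQ/- (35.6%, against 31.4%, with 19.0% and 12.4%). The control pair and the cGAMP pair of a line comparison share no library, although they come from the same clones. Of the 16 members past 1.5-fold in WT/- against WT/HAQ without cGAMP, 12 (75.0%) were past it in the same direction with cGAMP, against 55.8% of all genes past it without cGAMP (12.7% of all genes tested were past it the same way in both). The 12 were CDH2, COL4A1, COL4A2, COL5A1, FN1 and SPARC, which were higher, and COL6A2, EPCAM, ITGA2, ITGA6, KRT19 and VIM, which were lower. For HAQ/- against WT/HAQ it was 7 of 13 (53.8%, against 44.8%, and 7.11% of all genes tested), namely FN1, SPARC and TGFBI, which were higher, and EPCAM, KRT19, KRT7 and ZEB2, which were lower. For WT/- against HAQ/- it was 12 of 16 (75.0%, against 62.4%, and 16.7% of all genes tested). The members were not matched in depth to all genes tested, whose mean counts reach down to 10, so these shares do not compare equal depths. SNAI1 and TGFB2, at low counts, were among those whose line differences were within 1.5-fold with cGAMP.

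**Figure D2:**
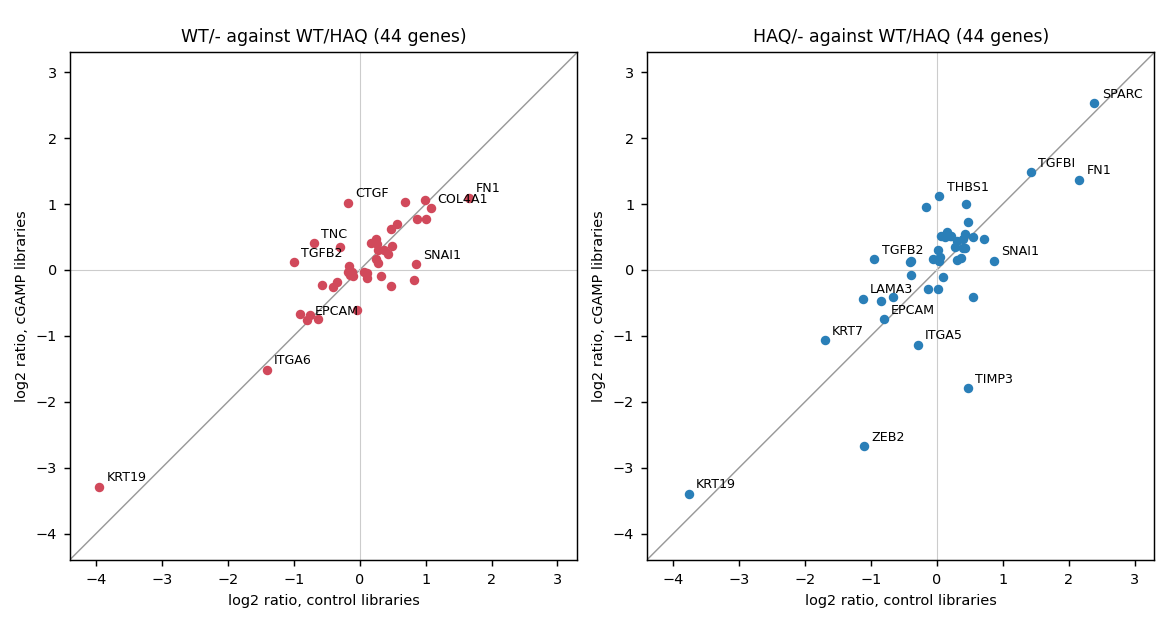
Log2 ratio of each clone over the WT/HAQ parent in the cGAMP libraries (vertical axis) against the same ratio in the control libraries (horizontal axis), with 1 point per gene for the 44 genes with a ratio in both, and the diagonal marking equal ratios. KRT19 lies near the diagonal at -3.95 and -3.29 in WT/- and at -3.77 and -3.40 in HAQ/-, SPARC at 2.39 and 2.53 in HAQ/-, while ZEB2 in HAQ/- went from -1.11 to -2.67 and TIMP3, with few counts, from 0.47 to -1.80.

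Other genes of these programs were described from lists, to be read against all genes tested, of which 13.0% were raised and 9.87% lowered in WT/- and 7.37% and 8.59% in HAQ/- against WT/HAQ control libraries. Of 33 other epithelial genes tested, 15 were lowered (45.5%) and 2 raised (6.06%) in HAQ/- (median log2 -0.55), and 6 lowered (18.2%) and 5 raised (15.2%) in WT/- (median -0.09). In the cGAMP libraries 10 were lowered (30.3%, against 9.89% of all genes) and 5 raised (15.2%, against 14.6%) in WT/-. In HAQ/- 15 were lowered there (45.5%, against 13.3%) and 3 raised (9.09%, against 9.87%). The largest differences in the HAQ/- control library were KRT17, a keratin of basal and stressed epithelia, at -3.31, ELF3, an epithelial transcription factor, at -2.68, and ESRP2, an epithelial splicing regulator, at -2.05. In WT/- the test called ELF3 higher than in the parent (log2 2.07, adjusted p = 0.0141) and ESRP2 lower (-1.54, adjusted p = 0.0408), among 2 up and 2 down in that comparison with PKP2 and CDH3 (0.72 and -0.88, named after their values were seen). That is 6.06% each way, near the 4.99% of all genes called up and 3.81% called down. The test called 3 of the 33 in HAQ/- against WT/HAQ (1.22% of all genes were called), all lower: KRT17 (adjusted p = 0.0116), ELF3 (0.0376) and JUP, plakoglobin of junctions (log2 -1.36, adjusted p = 0.0383), which was named after its values were seen. Of the 9 ovarian carcinoma markers, 4 were lowered and 1 raised (EMX2, from 3 to 5 raw counts) in the HAQ/- control library, and the test called 3, all lower and at low counts. They were MSLN, MUC16 and WFDC2, also named after their values were seen, with 75, 33 and 48 raw counts in the WT/HAQ and 8, 1 and 6 in the HAQ/- control library, while ERBB2 and PAX8 had log2 differences of 0.05 and 0.07. In WT/- against the parent the test called MUC16 (log2 -1.98, adjusted p = 0.0382) and ERBB2 (-0.43, 0.03) lower and FOLR1 higher (1.25, 0.0276). Of all genes 3.81% were called lower and 4.99% higher in that comparison. Among 22 other mesenchymal genes, 3 were raised (13.6%) and 2 lowered (9.09%) in HAQ/- (median 0.06), and 2 raised (9.09%) and 3 lowered (13.6%) in WT/- (median -0.15). In the cGAMP libraries 7 were raised (31.8%, against 9.87% of all genes) and 0 lowered in HAQ/-. The test called 3 of them in HAQ/-, all higher (0.377% of all genes were), PRRX1, LOXL1 and NT5E, and in WT/- 4 higher (LOXL1, LOXL2, TPM1 and FSTL1) and 2 lower (PRRX1 and NT5E), against 4.99% and 3.81% of all genes. NT5E, LOXL2, TPM1 and FSTL1 were named after their values were seen. PRRX1, a mesenchymal homeobox factor, had a log2 ratio of 1.51 in HAQ/- and -1.92 in WT/- control libraries against the parent, and both differences were called (adjusted p = 0.0298 and 0.0212). LOXL1, a lysyl oxidase of elastic fibres, was higher in both clones (0.82 and 0.91), and TAGLN, a smooth muscle actin-binding protein, had -0.79 in HAQ/-.

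Of 27 other collagen and matrix genes, 11 were raised (40.7%) and 6 lowered (22.2%) in WT/- (median log2 0.41), and 6 raised (22.2%) and 5 lowered (18.5%) in HAQ/- (median 0.13 over 26 with a ratio). COL6A3, the third chain of type VI collagen, had 40, 86 and 380 raw counts in the WT/HAQ, WT/- and HAQ/- control libraries and was called higher in HAQ/- than in WT/HAQ (log2 3.62 ± 0.26, adjusted p = 0.0164). COL1A2, the partner of COL1A1, had 232, 562 and 730 raw counts and was called in both clones (1.42 ± 0.10 in WT/-, adjusted p = 0.00544, and 1.67 ± 0.10 in HAQ/-, adjusted p = 0.00966), while COL1A1 was not. FBN2, fibrillin-2, had 209 raw counts in WT/- and 26 in HAQ/-. COL1A2 is also a fibroblast marker: the summed level of 8 such markers ranged from 602.8 to 723.3 normalized counts in the parent, from 1000 to 1138 in WT/- and from 1127 to 1190 in HAQ/-. Without COL1A2 the other 7 summed to 397.7 and 529.4 in the parent without and with cGAMP, 475.9 and 595.7 in WT/-, and 490.3 and 557.2 in HAQ/-, so that both clones were above the parent within each treatment while the ranges over both treatments overlapped. Of these 7, the 4 tested (DCN, LUM, PDGFRA and THY1) had adjusted p of 0.131 to 0.97 in HAQ/- and 0.35 to 0.999 in WT/-, and the part of these markers in the matrix differences was not tested.

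In 18 other basement membrane genes, 3 were raised and 3 lowered in each clone (16.7% each way). Of all genes 13.0% were raised and 9.87% lowered in WT/-, and 7.37% and 8.59% in HAQ/-. FBLN1, fibulin-1, had a log2 of -2.58 in WT/- and -0.67 in HAQ/-. In HAQ/- LAMB1, laminin beta-1, had 0.76 and LAMA4 -0.97. Of 29 other integrin and adhesion genes, 6 were raised (20.7%) and 3 lowered (10.3%) in WT/- and 3 raised (10.3%) and 5 lowered (17.2%) in HAQ/-. ICAM1, the leukocyte adhesion molecule induced by NF-kB, spanned the widest range, with 1619 raw counts in the WT/HAQ, 5582 in the WT/- and 142 in the HAQ/- control library. CEACAM6 had 110, 103 and 39, and DDR2, a collagen receptor kinase, 181, 46 and 103. The 25 genes of TGF-beta signalling gave 5 raised (20.0%) and 2 lowered (8.0%) in WT/- and 2 raised and 3 lowered in HAQ/-. LTBP1, which stores latent TGF-beta in the matrix, was lower in WT/- (log2 -1.10 ± 0.09, adjusted p = 0.00724) and higher in HAQ/- (1.03 ± 0.09, adjusted p = 0.0192), while BAMBI, a decoy receptor, had -1.20 in HAQ/- control libraries.

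cGAMP was compared within each line. In WT/HAQ 7 members were raised and 9 lowered (35.6% of the members), where 25.1% of all genes passed 1.5-fold (12.8% raised and 12.3% lowered). In WT/- 5 were raised and 5 lowered (22.2%), close to the 20.6% of all genes (11.9% and 8.77%). In HAQ/- 4 were raised and 4 lowered (17.8%), against 12.5% of all genes (6.75% and 5.76%). In all 3 lines ITGA2 and ITGA5 were raised (3.11% of all genes were) and CTGF, CYR61 and SNAI2 were lowered (1.34% of all genes), while 27 members stayed within 1.5-fold in each line. Over the lines, the edgeR test called ITGA2 up and CYR61, LAMB3 and SNAI2 down, where 2.27% of all genes were called up and 0.959% down (3.23% either way). Leaving out the WT/- line reduced these 4 calls to 0 (14 members at an unadjusted p under 0.05), and leaving out HAQ/- gave 20. The ratios share their control libraries with the line comparisons above. Whether a response differed between lines was not tested, since a fit with that term leaves no residual degrees of freedom.

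**Figure D3:**
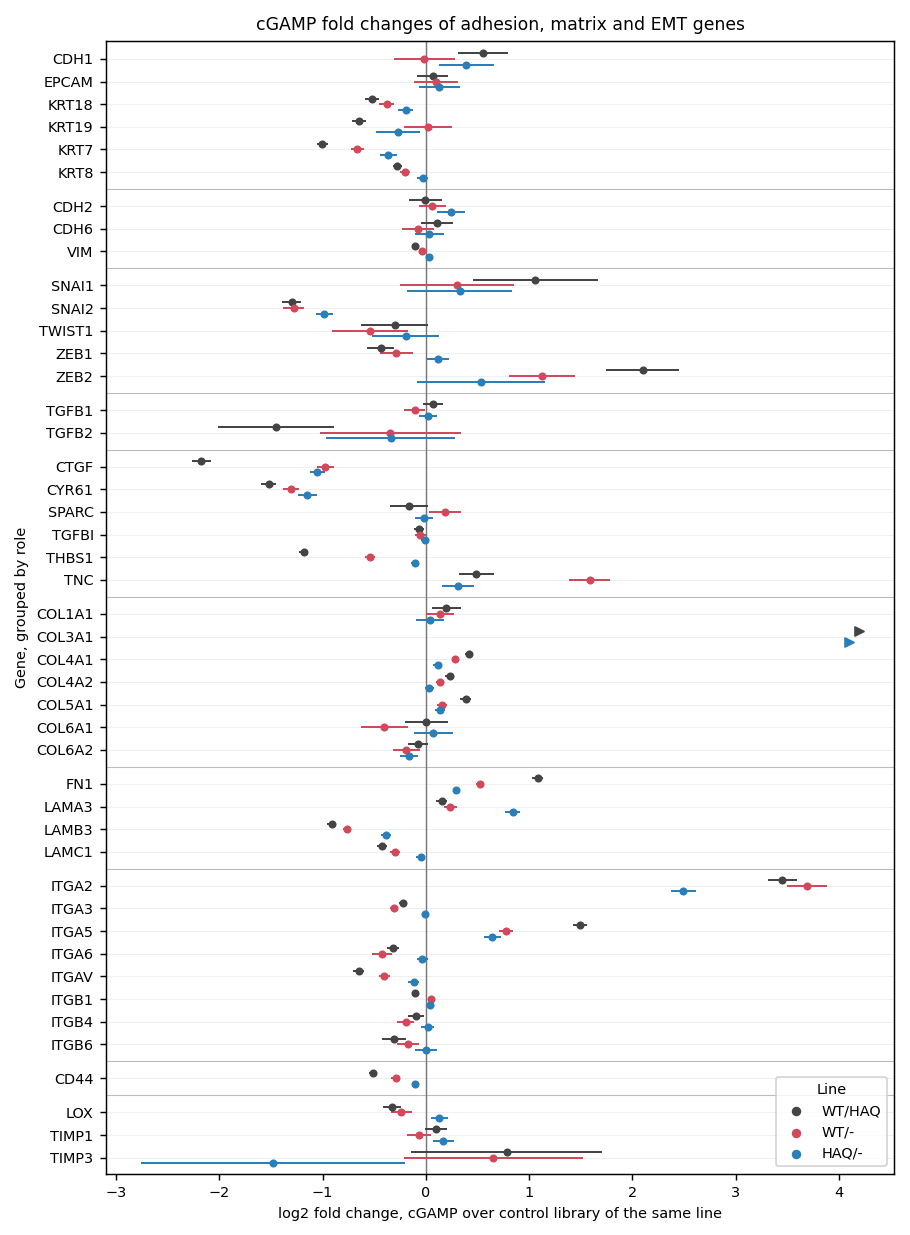
Log2 fold change of each gene, as the cGAMP over the control library within a line, with 95% Wilson counting intervals as bars, rows grouped by role and 1 colour per line, and triangles for ratios against a floor of 3 counts, where the control library had fewer. ITGA2 stands apart on the right in all 3 lines (3.45, 3.69 and 2.50), and CTGF, CYR61 and SNAI2 lie on the left in all 3.

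ITGA2 (chr5:52989340-53094779) had the largest cGAMP ratio of the 45 genes in each line apart from the near-silent COL3A1. Its normalized counts were 451.7 without and 4947.3 with cGAMP in the parent, 240.8 and 3108.0 in WT/-, and 658.7 and 3714.1 in HAQ/-. All 3 cGAMP libraries were thus above all 3 control libraries, by 10.95-fold, 12.91-fold and 5.639-fold within the lines. The edgeR log2 change was 3.20 ± 0.25 (adjusted p = 0.00918). ITGA5 had 2807.2 normalized counts without and 7891.9 with cGAMP in WT/HAQ, 3900.9 and 6686.1 in WT/-, and 2298.8 and 3588.2 in HAQ/-. It did not pass the test (log2 0.97 ± 0.18, adjusted p = 0.0594). Its ligand FN1 was 2.119-fold, 1.437-fold and 1.228-fold higher with cGAMP in WT/HAQ, WT/- and HAQ/- and was not called either (adjusted p = 0.0915).

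The other integrins had smaller ratios. ITGAV, the alpha-v chain, was lowered 1.568-fold in WT/HAQ and was 1.32-fold and 1.085-fold lower in WT/- and HAQ/-. ITGA3, ITGA6, ITGB1, ITGB4 and ITGB6 stayed within 1.5-fold in each line. ITGB1, with which the ITGA2 chain pairs, held 40236 and 37391 normalized counts in WT/HAQ without and with cGAMP, 31659 and 32859 in WT/-, and 41602 and 42822 in HAQ/-, at most 1.076-fold apart within a line. CD44 had 19902 and 13966 in the parent, 17785 and 14550 in WT/-, and 22217 and 20707 in HAQ/-. Per kilobase of exon, ITGA2 went from 57.2 to 626.6 normalized counts in the parent while ITGB1 held 2763 and 2568.

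SNAI2 fell with cGAMP. It had 4075.6 normalized counts without and 1654.8 with cGAMP in the parent, 3788.0 and 1558.7 in WT/-, and 4655.1 and 2355.7 in HAQ/-. The control and cGAMP libraries did not overlap, and the edgeR log2 change was -1.19 ± 0.09 (adjusted p = 0.00829). ZEB2 had the opposite sign. It had 83 and 331 raw counts in the parent, 139 and 212 in the WT/- libraries, and 39 and 45 in those of HAQ/-, log2 fold changes of 2.10, 1.13 and 0.53 with an interval in HAQ/- from -0.08 to 1.15, and the test did not call it (adjusted p = 0.0776). SNAI1 had 34 and 66 raw counts in WT/HAQ, a ratio of 2.087, with ratios of 1.234 and 1.255 in WT/- and HAQ/-, and was not called (adjusted p = 0.229). ZEB1 and TWIST1 stayed within 1.5-fold in each line.

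CTGF and CYR61 were lower with cGAMP in each line. CTGF had 6401.1 normalized counts without and 1419.1 with cGAMP in the parent, 5642.3 and 2875.6 in WT/-, and 5682.8 and 2745.4 in HAQ/-. It was 4.511-fold lower in the parent and 1.962-fold and 2.07-fold lower in the clones, and it was not called (log2 -1.39 ± 0.25, adjusted p = 0.0598). CYR61 had 7155.0 and 2489.3 in the parent, 8525.1 and 3447.2 in WT/-, and 3991.2 and 1799.6 in HAQ/-. It fell by the test (log2 -1.33 ± 0.09, adjusted p = 0.00708). THBS1, another known YAP target, had 18901 and 8326.3 in the parent, 15428 and 10625 in WT/-, and 19377 and 18054 in HAQ/-. Its log2 folds were -1.18, -0.54 and -0.10 in that order of lines, and it was not called (adjusted p = 0.153).

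The promoter windows of CTGF and THBS1 are printed with the letters GGAATG, the core that TEAD proteins bind, in capitals on the printed strand, since both genes are known YAP targets with these letters in the window. In RefSeq (GRCh38.p14) they read:
CTGF (CCN2), chr6:131951323-131951622, minus strand: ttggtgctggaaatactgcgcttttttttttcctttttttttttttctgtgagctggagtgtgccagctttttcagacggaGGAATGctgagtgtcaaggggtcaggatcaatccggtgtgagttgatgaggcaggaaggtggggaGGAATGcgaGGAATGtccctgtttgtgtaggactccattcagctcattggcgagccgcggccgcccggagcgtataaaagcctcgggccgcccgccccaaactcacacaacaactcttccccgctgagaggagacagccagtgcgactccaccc
THBS1, chr15:39580829-39581128, plus strand: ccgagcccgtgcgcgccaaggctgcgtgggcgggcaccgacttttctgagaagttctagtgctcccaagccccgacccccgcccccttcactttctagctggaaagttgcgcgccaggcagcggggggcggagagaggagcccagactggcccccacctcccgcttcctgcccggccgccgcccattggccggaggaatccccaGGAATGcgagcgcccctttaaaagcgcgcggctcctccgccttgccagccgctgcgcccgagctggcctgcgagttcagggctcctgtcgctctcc
CTGF holds 3 matches in this window, from -169 to -164, from -104 to -99 and from -95 to -90 bases from the start, and THBS1 1, from -46 to -41. Of the 45 genes 30 had a window, and 8 of these (26.7%) held GGAATG on either strand, against 14.0% of 35116 windows. CYR61 had no window and was not searched. Besides CTGF and THBS1, those with GGAATG were ITGA5, ITGB1, KRT8, SPARC, TGFB2 and ZEB1. With cGAMP ITGB1, KRT8, SPARC and ZEB1 stayed within 1.5-fold in each line, and TGFB2 was lowered in WT/HAQ alone. CAGGTG, an E-box of the kind bound by SNAI and ZEB factors, stood in 5 of 30 (16.7%, against 20.6%), and TGANTCA, the AP-1 site, in 2 of 30 (6.67%, against 7.71%). The matches are of letters only. ITGA5, which was raised in all 3 lines, had both a GGAATG match and the AP-1 letters TGAGTCA, while the window of ITGA2, also raised in all 3, held no match of any motif.

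In the YAP and TEAD list a minority of genes was lowered. Of 22 tested, 8 were lowered in the parent (36.4%), 5 in the WT/- (22.7%) and 6 in the HAQ/- clone (27.3%), against 12.3%, 8.77% and 5.76% of all genes, with 0, 1 and 0 raised. Ratios were above 0 for 9, 9 and 8 of the 22, with medians near 0 (log2 -0.16, -0.11 and -0.09). The edgeR test called 4, all of them down, where 0.959% of all genes were called down. They were AJUBA, a LIM protein of cell junctions (log2 -1.51 ± 0.23, adjusted p = 0.0439), F3, which encodes tissue factor (-1.11 ± 0.17, adjusted p = 0.0444), AMOTL2, an angiomotin (-0.96 ± 0.10, adjusted p = 0.018), and LATS2, a Hippo kinase (-0.53 ± 0.08, adjusted p = 0.0383), which was named after its values were seen. ANKRD1, a classic target, had 136 and 11 raw counts in the parent, 144 and 21 in the WT/- and 46 and 14 in the HAQ/- libraries, and was not called (adjusted p = 0.052). The genes for YAP1, WWTR1 and TEAD1 to TEAD4 were not called. Of the 12 immediate-early genes, 8 were lowered in the parent, 5 in the WT/- and 8 in the HAQ/- clone, against 12.3%, 8.77% and 5.76% of all genes. JUNB was raised in the parent (7999 to 11536 raw counts), where FOS had a log2 fold of -0.02. The test called 4 of them down, FOSB (log2 -1.64 ± 0.12, adjusted p = 0.00757), EGR2 (-1.75, 0.0104), FOSL1 (-1.35, 0.018) and IER3 (-1.18, 0.0272). JUNB, EGR2, FOSL1 and IER3 were named after their values were seen, and the part of this class in the CTGF and CYR61 values was not tested.

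**Figure D4:**
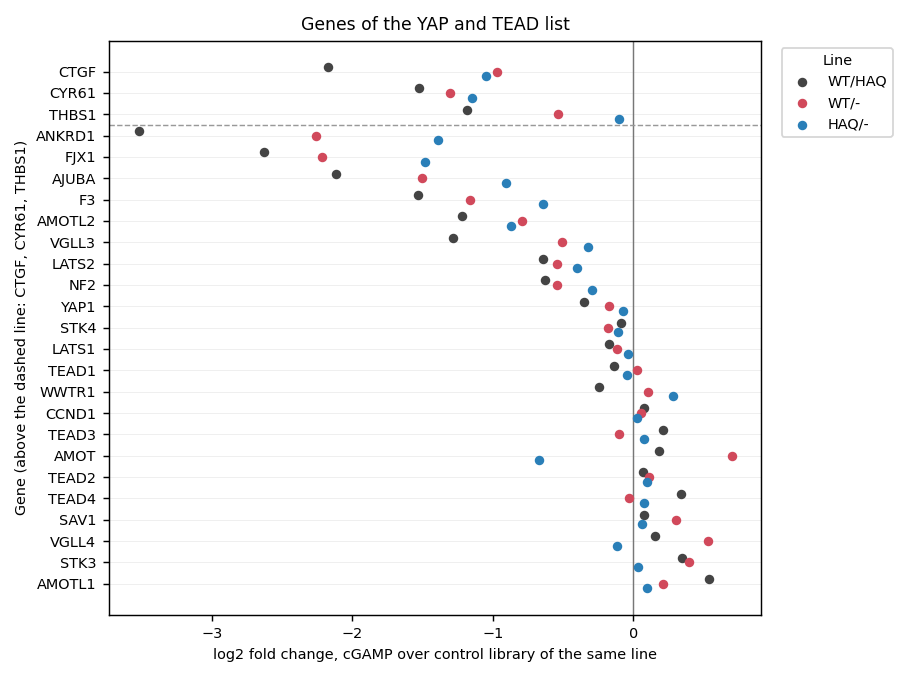
Log2 fold change (cGAMP over control library within a line) for CTGF, CYR61 and THBS1 (above the dashed line) and for the 22 tested genes of the YAP and TEAD list, with 1 colour per line. ANKRD1 (-3.52, -2.26 and -1.39) and AJUBA (-2.12, -1.51 and -0.91) lie to the left, while CCND1 (0.08, 0.05 and 0.03) and the genes for YAP1 and the TEAD factors lie near 0.

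LAMB3 fell as well, with 18630 normalized counts without and 9913.6 with cGAMP in the parent, 25962 and 15310 in WT/-, and 14012 and 10722 in HAQ/- (log2 -0.69 ± 0.11, adjusted p = 0.0484). The call was lost with DESeq2 size factors in edgeR (adjusted p = 0.0523) and without the WT/HAQ line (0.16). LAMA3, its partner chain, did not share this: it had 6554.9 and 7291.2 in the parent, 5976.4 and 7046.7 in WT/-, and 2999.3 and 5381.3 in HAQ/-, where it was raised 1.794-fold. LAMC1 stayed within 1.5-fold in each line. KRT7 was lowered in WT/HAQ and WT/- (2.002-fold and 1.585-fold) and 1.288-fold lower in HAQ/-, and was not called (adjusted p = 0.0644). KRT19 was lowered 1.561-fold in WT/HAQ, where it is abundant, and was 1.013-fold higher and 1.207-fold lower in WT/- and HAQ/-. EPCAM, CDH1, CDH2, CDH6, VIM, KRT8 and KRT18 stayed within 1.5-fold in each line, and so did SPARC and TGFBI.

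TNC was raised 3.005-fold in WT/-, from 308.9 to 928.3 normalized counts, with 1.403-fold and 1.239-fold higher values in WT/HAQ and HAQ/-, and was not called (adjusted p = 0.146). TGFB2 was lowered 2.737-fold in WT/HAQ, from 103 to 35 raw counts. The collagens COL1A1, COL4A1, COL4A2, COL5A1, COL6A1 and COL6A2 stayed within 1.5-fold in each line. COL3A1, the main chain of type III collagen, appeared with 51 raw counts in the WT/HAQ and 41 in the HAQ/- cGAMP library and 0 in the WT/- cGAMP library. Against a floor of 3 counts per library its level was at least 18.28-fold higher with cGAMP in WT/HAQ. In HAQ/- it had 0.872 normalized counts without and 44.9 with cGAMP, and with a single count in the control library the log2 ratio had a counting interval from 3.16 to 8.21. It was not called (adjusted p = 0.0664). LOX and TIMP1 stayed within 1.5-fold in each line.

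KRT17, of the other epithelial genes, had a response of the size of that of ITGA2, with 244 and 3827 raw counts in the parent, 217 and 1494 in the WT/- and 25 and 228 in the HAQ/- libraries (log2 3.66 ± 0.18, adjusted p = 0.00362). It was the only 1 of the 33 called by the test (3.03%), close to the 3.23% of all genes called either way. Of the 27 other collagen and matrix genes the test called 1, a count also near the 3.23% of all genes called either way. It was NOV (CCN3), a relative of CTGF and CYR61 that was named after its values were seen, with the opposite sign: it had 858 and 7317 raw counts in the parent, 522 and 2446 in the WT/- and 718 and 1682 in the HAQ/- libraries (log2 2.51, adjusted p = 0.0295). Against 12.8% of all genes raised and 12.3% lowered in WT/HAQ, 11.9% and 8.77% in WT/-, and 6.75% and 5.76% in HAQ/-, the 22 other mesenchymal genes had 1 raised and 6 lowered in WT/HAQ, 1 raised and 2 lowered in WT/-, and none past 1.5-fold in HAQ/-. The 29 other integrin and adhesion genes had 6 raised and 4 lowered in WT/HAQ, 6 and 2 in WT/-, and 3 raised in HAQ/-, and the 18 other basement membrane genes 2 and 2, 1 and 2, and 2 raised. The 25 genes of TGF-beta signalling had 1 raised and 6 lowered in WT/HAQ, 4 and 7 in WT/-, and 1 lowered in HAQ/-. The test called 2 of them, both down (0.959% of all genes were), SMAD6 and SKIL, which are inhibitors of the pathway (SKIL with log2 -0.52 and adjusted p = 0.0307, named after its values were seen). SMAD6 had 453 and 134 raw counts in the parent, 1012 and 228 in the WT/- and 430 and 211 in the HAQ/- libraries (-1.33 ± 0.21, adjusted p = 0.0458). INHBA, the activin A subunit, had 4414 and 931 raw counts in the parent and 6484 and 1080 in WT/-, against 2130 and 1840 in HAQ/-. ACVR1, an activin and BMP receptor, had 513 and 2284 in the parent and 456 and 1508 in WT/-, against 550 and 521 in HAQ/-. Neither was called over the 3 lines (adjusted p = 0.162 and 0.105), and the difference between HAQ/- and the other lines was not tested.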

How the data were processed

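RNA-seq of SKOV3 cells was analysed from the 6 deposited libraries, 1 for each line (WT/HAQ, WT/- and HAQ/-) and treatment (control and cGAMP). The authors deposited expected counts per Ensembl gene without normalization, and the submitters' processing notes name STAR, RSEM, GRCh38 and hg38 with no versions. All 6 columns were matched to conditions by the sample labels, with 0 left over. Of the values in a library 92.7% to 93.3% were whole, and values were rounded to whole counts. The members and gene lists were chosen with earlier results of these data known. All 45 members are named, STING1 is named once, and of each other list up to 3 genes are named, those with the largest absolute log2 ratio between the HAQ/- and WT/HAQ control libraries at a mean count of at least 50, and for the TGF-beta and YAP lists also up to 3 by mean cGAMP fold. Named beyond this rule, after their values were seen, were JUP, PKP2, CDH3, NT5E, LOXL2, TPM1, FSTL1, NOV, SKIL, LATS2, SAV1, VGLL3, VGLL4, CCND1, JUN, JUNB, EGR2, FOSL1, IER2, IER3, YAP1, WWTR1, the TEAD genes and the genes of marker lists.

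Counts were scaled with TMM (edgeR 4.0.16, R 4.3.3, factors from 0.9403 to 1.0523) over genes averaging 10 counts or more, and normalized counts refer to a library of geometric-mean effective size. Counts under 3 were set to 3 for ratios, and genes at 3 or fewer in both libraries got none. The test fitted line and treatment together. It returns no SE, so the SE given with its log2 values is the absolute log2 value divided by the square root of the F statistic. DESeq2 1.42.0 served for alternatives, and pandas 2.3.3, numpy 2.4.6, matplotlib 3.10.9 and scipy 1.17.1 under Python 3.11.15 for the rest, and the steps were tested on simulated data. Positions and exon lengths (the union of annotated exons) are from GRCh38 and GENCODE release 44, which holds 56434 of 60498 identifiers, and promoter windows from RefSeq, matched by symbol. Alternatives were other scalings, filters, floors and folds, other test terms, and leaving out libraries or lines.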

Additional observations from a re-analysis of the deposited data

Results flagged for a closer look

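TIMP3, an inhibitor of matrix proteases, had cGAMP values on opposite sides in the lines. Its raw counts without and with cGAMP were 15 and 24 in WT/HAQ, 20 and 22 in WT/- and 21 and 6 in HAQ/-, which gave log2 fold changes of 0.78 in WT/HAQ and 0.65 in WT/- and of -1.48 in HAQ/-. The counting intervals reached from -0.13 to 1.70, from -0.21 to 1.52 and from -2.75 to -0.21. The difference between lines was not tested, and edgeR did not call TIMP3 over the lines (log2 0.12 ± 0.51, adjusted p = 0.909).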

How the results depend on the processing

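A fold of 2 in place of 1.5 left 4 of 16 members in WT/- against WT/HAQ control libraries, 7 of 13 in HAQ/- against WT/HAQ, 5 of 10 with cGAMP in WT/- and 5 of 8 with cGAMP in HAQ/-. The other alternatives for these counts (2 other scalings, thinning, a floor of 10 counts, a mean count of at least 1 or 50) stayed within 1.5 times. Scaling by total counts alone shifted the median of all genes in WT/- against HAQ/- control libraries to a log2 of -0.10. For the cGAMP test (4 calls), the fit with no replicate block, that is without the line, gave 1, DESeq2 11 and a mean count of at least 1 gave 9. Leaving out a line gave 0 to 20, with 0 without WT/- (0 of all genes called, 1898 at an unadjusted p under 0.05). Over all genes this test called 489, against 61 without the line, 1355 with DESeq2 and 1005 at a mean count of at least 1.

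For the line tests, leaving out the treatment term gave 7 in place of 12 (WT/- against WT/HAQ), 3 in place of 6 (HAQ/- against WT/HAQ) and 7 in place of 17 (WT/- against HAQ/-). DESeq2 gave 15 for HAQ/- against WT/HAQ, and a mean count of at least 1 gave 11. Leaving out 1 library gave 0 to 18, 0 to 19 and 0 to 20, and the 0 came in each without either WT/- library (15 and 18, 22 and 24, and 19 and 20 members at an unadjusted p under 0.05). Over all genes, 185 were called in HAQ/- against WT/HAQ, 562 with DESeq2 and 369 at a mean count of at least 1, and 14, 247 and 710 without the treatment term in HAQ/- against WT/HAQ, WT/- against WT/HAQ and WT/- against HAQ/-, where the full fit called 185, 1332 and 2880. The cause was not tested. For single members, 1493 ratios moved by less than their counting interval and 95 by more, and of the tests 125 lost and 93 gained a call, 1444 did neither, and none turned its direction past the threshold. Depth limits TIMP3, SNAI1, TGFB2 and COL3A1, at up to 103 counts a library.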
